A study of Mus musculus with 2 samples.

Results

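The Tcl1 family and the kinases Akt1 and Akt2 were followed in mouse embryonic stem cells that lacked Tcl1 and in cells of that origin to which Tcl1 had been given back. The genes were those of the array whose platform symbol is Tcl1, Tcl1b1, Tcl1b2, Tcl1b3, Tcl1b4, Tcl1b5, Mtcp1, Akt1 or Akt2. The rule is a list of names and uses no measured value, though earlier results of these data were known when the list was made. All 9 were found, with 11 probes, among 19087 genes with a symbol, and all 9 entered the test.

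Tcl1 and its relatives encode small proteins with a barrel fold that have no enzyme activity of their own. They bind the pleckstrin homology domain of Akt and promote its phosphorylation. Akt is the kinase that carries signals from PI3 kinase to cell survival, growth and glucose use. In mouse embryonic stem cells Tcl1 is one of the genes needed for self-renewal, and it lies downstream of the factor Oct4.

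Each of 2 two-colour arrays set a Tcl1 stable transformant against a Tcl1 gene disruptant. On array 1, transformant clone 1 was in Cy5 and disruptant clone 4 in Cy3. On array 2 the dyes were the other way round, and disruptant clone 6, stably transfected with CAG-EGFP, was in Cy5 against transformant clone 4 in Cy3. In all these cells both Tcl1 copies carried a PGK-puro cassette in place of parts of exon 2 and exon 3. The transformants also held the vector CAG-Tcl1ireszeopA, in which the broadly active CAG promoter and not the gene's own drives Tcl1. The labels describe it as put into disruptant clone 4, so every transformant stems from 1 disrupted clone. Disruptant clone 4 has no vector named. The cells were kept in LIF and serum on gelatin without feeders, at under 30 passages. The labels call the arrays biological replicates of different clones, and unmodified cells with intact Tcl1 were not analysed here.

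Values below are log2 ratios of transformant over disruptant. Pairs of values stand in the order of array 1, array 2, and means are followed by the SD between the 2 arrays. A value of 1 is a 2-fold higher level in the transformant. The deposited numbers were read as log10 ratios of Cy5 over Cy3, a scale and a direction that are likely for the scanner program but unstated. Under the opposite direction each sign would turn. No channel intensities were used, so levels, and whether a spot lay above background, are unknown. The presence of stem cell markers could not be checked for the same reason.

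The 5 Tcl1b genes resemble each other in sequence, and stretches before their starts are shown for that reason. RefSeq (GRCm38.p6) gave a window for each of the 9 genes, and the 250 bases before the first annotated start of each were compared by global alignment. Among the 10 pairs of Tcl1b genes the identity ran from 55.0% to 89.4%, with Tcl1b2 and Tcl1b4 the closest. Tcl1 against a Tcl1b gene gave 47.8% to 49.5%, and Akt1 against Akt2 46.7%. Global alignments of unrelated members, such as Tcl1 and Akt1, gave values like these (47.0%). The capitals below mark a run of 25 bases that stood in all 5 Tcl1b windows, shown with up to 20 bases on either side. Searched on both strands in 32851 windows of all genes, this run was found in 5, those of the Tcl1b genes (0.0152%). The stretches lie on the plus strand at chr12:105159514-105159578 for Tcl1b1, chr12:105146804-105146868 for Tcl1b2, chr12:105190795-105190839 for Tcl1b3, chr12:105202193-105202257 for Tcl1b4 and chr12:105176168-105176232 for Tcl1b5.
Tcl1b1: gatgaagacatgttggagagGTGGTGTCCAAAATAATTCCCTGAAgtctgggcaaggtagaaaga
Tcl1b2: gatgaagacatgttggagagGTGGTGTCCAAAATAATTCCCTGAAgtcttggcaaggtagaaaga
Tcl1b3: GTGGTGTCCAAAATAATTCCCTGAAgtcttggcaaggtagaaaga
Tcl1b4: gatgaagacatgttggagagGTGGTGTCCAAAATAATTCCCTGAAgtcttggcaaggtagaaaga
Tcl1b5: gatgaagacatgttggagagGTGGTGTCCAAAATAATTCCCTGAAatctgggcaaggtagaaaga
The Tcl1b genes sit side by side with Tcl1 on chromosome 12. Transcript and probe sequences were not used here, so how much signal 1 Tcl1b probe takes from another Tcl1b transcript was not tested.

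Tcl1, the disrupted gene and the one put back, did not differ past the test between the transformants and the disruptants. Its single probe read −0.37 on array 1 and 0.17 on array 2, so the transformant was the lower on the first and the higher on the second. The mean was −0.10 ± 0.38 (SD, n = 2). The 95% interval of limma ran from −1.07 to 0.87, which spans from 2.10-fold lower to 1.83-fold higher in the transformants. On both arrays Cy3 was the brighter dye at this spot, with deposited log10 values of −0.111 and −0.0507. Of the named genes, 33.7% had a larger gap between the arrays than Tcl1. The position of the probe, inside or outside the replaced exon parts and the insert of the vector, was not analysed here. It therefore checks neither the labels nor the direction, and transformant and disruptant are used as the labels give them.

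The 5 Tcl1b genes, which encode proteins closely related to Tcl1, lay near 0 on both arrays. Their 10 values ran from −0.28 to 0.24. Tcl1b1 had −0.04 and −0.28, below 0 on both. Tcl1b2 had the narrowest interval of the family, with values of −0.06 and −0.03 and a 95% interval from −0.38 to 0.29. That interval leaves room for differences of up to 1.30-fold lower and 1.22-fold higher in the transformants. Tcl1b3 had −0.09 and 0.08, and Tcl1b4 had −0.21 and 0.04. Like Tcl1, both read Cy3 as the brighter dye on each array. Tcl1b5 was the 1 Tcl1b gene above 0 on both, with 0.05 and 0.24. The means, in order of size, were −0.16 ± 0.17 for Tcl1b1, −0.09 ± 0.18 for Tcl1b4, −0.04 ± 0.02 for Tcl1b2, −0.0048 ± 0.12 for Tcl1b3 and 0.15 ± 0.14 for Tcl1b5 (SD, n = 2 each). Neighbours in this order differed by no more than the larger of their SDs, except for Tcl1b3 and Tcl1b5, whose means stood slightly further apart.

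Mtcp1, an X-linked relative first known from translocations in human T cell leukaemia, had the mean furthest from 0 among the 9 genes, with values close together. It read −0.28 and −0.32, a mean of −0.30 ± 0.03 (SD, n = 2) or 1.23-fold lower in the transformants. The brighter dye was Cy3 on array 1 and Cy5 on array 2, so that the disruptant was the brighter on both. The gene still did not pass (limma, unadjusted p = 0.0616, adjusted p = 1), and its 95% interval ran from −0.64 to 0.04. Of the 19087 named genes, 769 (4.03%) lay at or below Mtcp1 on both arrays.

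Mtcp1 shares its annotated start with Cmc4, a gene for a small mitochondrial protein, and the RefSeq windows of both are the same sequence. The 80 bases before that start, at chrX:75416585-75416664 on the minus strand of GRCm38.p6, are shown because 1 start serves 2 genes that were measured with separate probes. The capitals mark GGGCGG, the GC box, or its reverse complement. It was found 2 times over both strands together in this window of 250 bases. At least 1 copy on either strand stood in 32.7% of all such windows.
Mtcp1: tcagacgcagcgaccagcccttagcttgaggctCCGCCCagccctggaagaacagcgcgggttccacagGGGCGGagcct
The Cmc4 probe read 0.44 and −0.30, a mean of 0.07 ± 0.52 (SD, n = 2). Cmc4 thus lay above 0 on array 1, where Mtcp1 was below it, and beside Mtcp1 on array 2. The transcripts overlap, and which of them each probe detects was not tested.

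**Figure D1:**
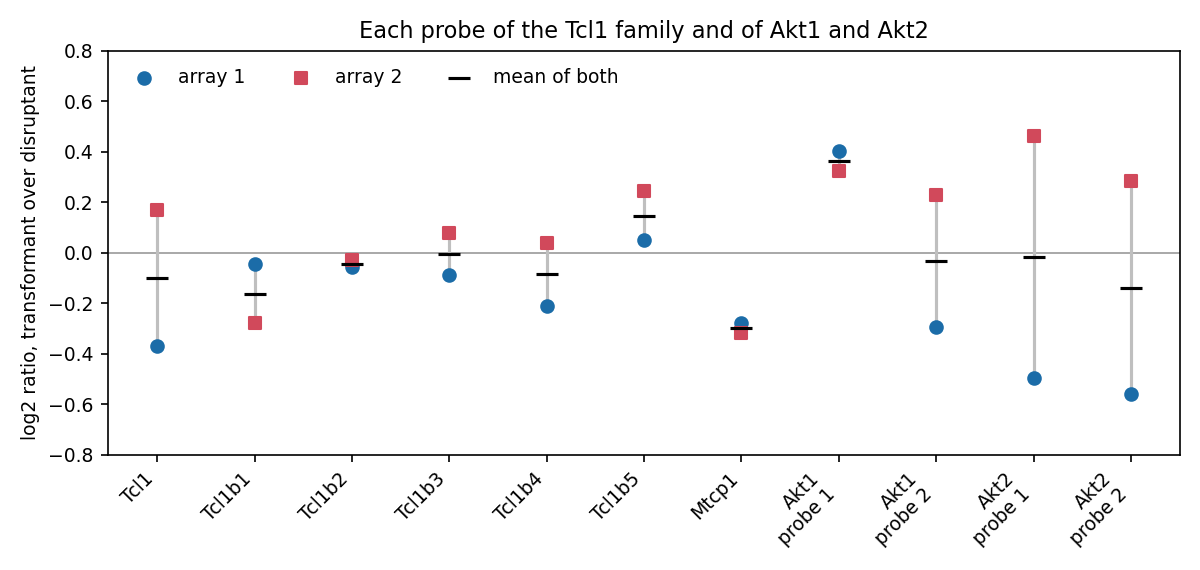
Log2 ratio of transformant over disruptant for each of the 11 probes, with array 1 as circles, array 2 as squares and the mean of both as a bar; n = 2 arrays. The values of Mtcp1 and of the first Akt1 probe lie close together and off 0, while both Akt2 probes are below 0 on array 1 and above 0 on array 2.

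Akt1 and Akt2, the kinases that the Tcl1 proteins bind, did not differ past the test either. Akt1 was measured with 2 probes assigned to the same transcript. The first read 0.40 and 0.32, with a mean of 0.36 ± 0.06 (SD, n = 2), and so above 0 both times. The second read −0.29 and 0.23, with a mean of −0.03 ± 0.37. On array 1 the probes thus pointed opposite ways, and on array 2 the same way. Averaged, Akt1 had 0.05 and 0.28, a mean of 0.17 ± 0.16 with a 95% interval from −0.34 to 0.67. The direction of the Akt1 mean thus depended on which of its probes was read.

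Akt2, the family member best known from insulin responses, showed the widest gap between arrays among the 9 genes. Its first probe read −0.50 and 0.46 and its second −0.56 and 0.28. The probes thus repeated each other on each array while the arrays opposed each other. The gene averages were −0.53 and 0.37, for a mean of −0.08 ± 0.64 (SD, n = 2). The 95% interval reached from −1.64 to 1.49, which allows from 3.12-fold lower to 2.80-fold higher in the transformants. Both probes had Cy3 as the brighter dye on both arrays, with deposited log10 values of −0.15 and −0.139 for the first and −0.169 and −0.0851 for the second. A smaller gap than that of Akt2 was seen in most named genes, and a larger one in 16.4%. The arrays also differ in their clones and in the EGFP vector, and the part of dye, clone and vector in this gap cannot be told apart.

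**Figure D2:**
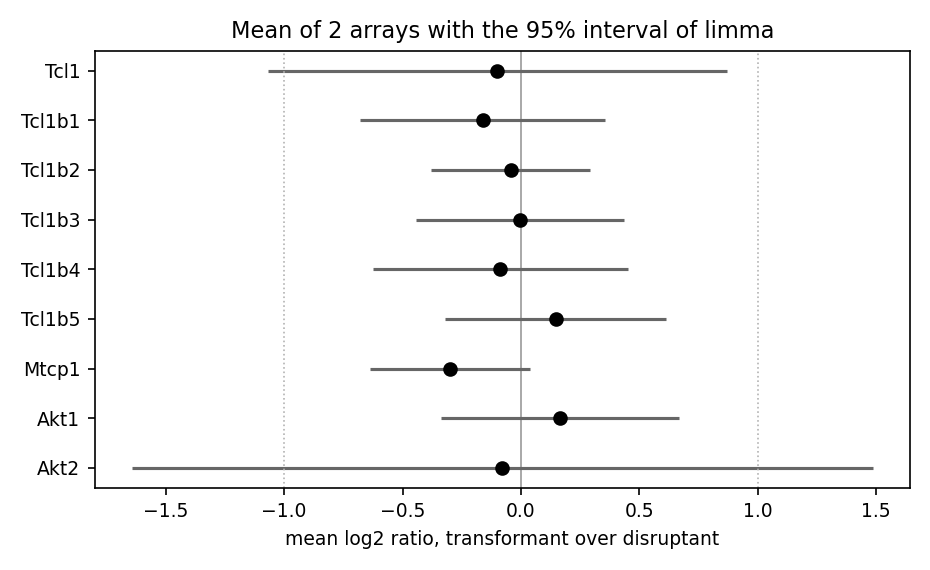
Mean log2 ratio of transformant over disruptant (points) with the 95% interval from limma (lines), n = 2 arrays; dotted lines mark a 2-fold difference. All 9 intervals include 0, and those of Tcl1 and Akt2 pass the 2-fold line.

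Over the 9 genes limma called 0 at an adjusted p under 0.05, with adjusted p = 1 for each, against 0% of all 30110 entries (19087 genes and 11023 single probes without a name). At an unadjusted p under 0.05 there were again 0 members, against 3.15% of entries, or 2.53% with a robust variance model. The unadjusted p of the members ran from 0.0616 for Mtcp1 to 0.964 for Tcl1b3. At least a 2-fold difference on either array was seen for 0 members and for 9.3% of entries.

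Below 0 on both arrays were 3 members (Tcl1b1, Tcl1b2 and Mtcp1), against 17% of all entries. Above 0 on both were 2 (Tcl1b5 and Akt1), against 21%. The other 4, Tcl1, Tcl1b3, Tcl1b4 and Akt2, had opposite signs, against 53.4% of entries. In all 4 the value was below 0 on array 1 and above 0 on array 2, which means that Cy3 was the brighter dye on each array, a pattern seen in 27.3% of entries. By probe it held for 6 of 11 and the reverse, Cy5 brighter on both arrays, for 0. Among named genes, Cy3 was brighter on both arrays in 27.2% and Cy5 in 28.2%, and the shares over all probes were not taken. The median over the 9 genes was −0.09 on array 1 and 0.08 on array 2, and the medians over all entries were 0 and 0. Across all entries the arrays ran weakly against each other (Pearson r = −0.19 and Spearman rho = −0.21 across genes, which are not independent replicates).

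**Figure D3:**
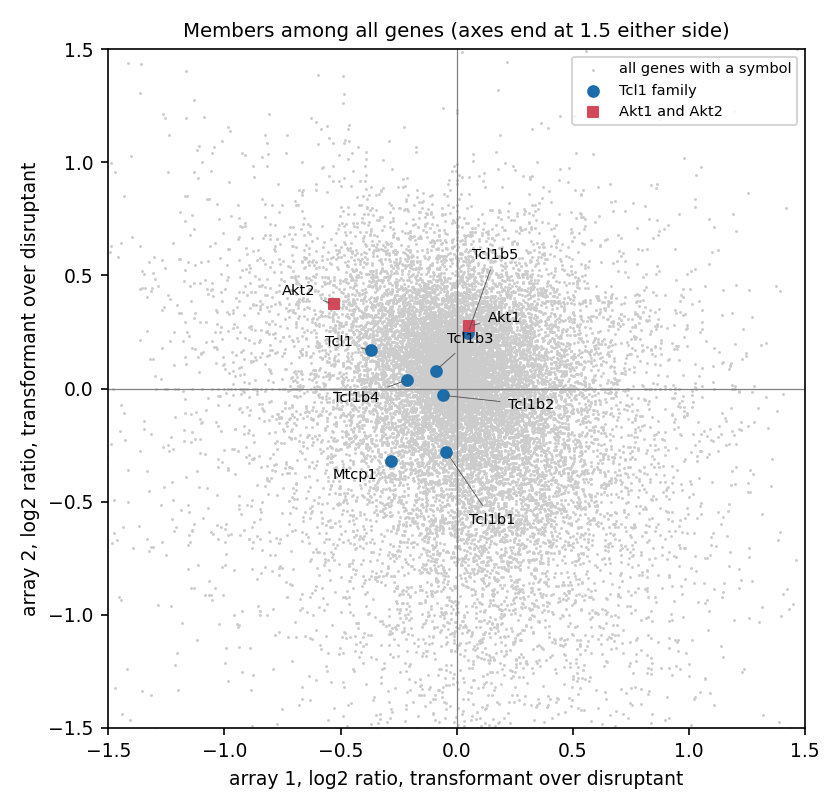
Log2 ratio of transformant over disruptant on array 1 (x axis) and array 2 (y axis) for all named genes (grey), the Tcl1 family (circles) and Akt1 and Akt2 (squares). The members lie inside the main cloud, with Mtcp1 at −0.28 and −0.32 and Akt2 at −0.53 and 0.37; 486 named genes lie beyond 1.5 on an array and are outside the axes.

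The genes nearest to Tcl1 in their pair of values, by Euclidean distance over the 2 arrays, were Frat1 (distance 0.0046), Krtdap (0.014) and Msantd1 (0.015). Within a distance of 0.1 of Tcl1 there were 280 named genes. The nearest to Mtcp1 were Mrpl48 (0.012), Cdk7 (0.013) and Zfp560 (0.017), with 175 genes within 0.1. With a likeness measured on 2 arrays only, so many genes are close that it singles out none.

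Genes around Akt and regulators of self-renewal were read from 6 lists with 86 different genes, of which 77 had a probe matched by symbol. The lists hold genes that act on Akt, Akt substrates, the TORC1 branch, kinase relatives of Akt and self-renewal regulators named with Tcl1. None of the 77 was called by limma after adjustment (0), with 7 at an unadjusted p under 0.05, against 3.15% of all entries. Those 7 were Inpp5d, Map3k5, Eif4b, Nanog and Sox2 on the lower side and Inpp4b and Gsk3a on the higher side in the transformants. Nanog and Sox2 come from the self-renewal list and not from the lists around Akt. In both values 23 were negative (17% of all entries were) and 10 positive (21% were), and 44 had opposite signs. Of the 23, 6 come from the self-renewal list, which was made when pluripotency genes were known to lie low. The pooled counts are thus no independent evidence. The lists overlap in a few genes.

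The list for the activation of Akt (kinases, TORC2 parts and chaperones) had medians of 0.02 on array 1 and −0.10 on array 2. Of its 13 genes, 4 were negative and 2 positive on each array. Deptor, an inhibitor of the TOR kinase and so no activator, is 1 of the 4 and is named outside the rule. Pdpk1, the kinase that phosphorylates the activation loop of Akt, had −0.20 and −0.55 as the average of 3 probes. Mlst8, a subunit of both TOR complexes, had the highest mean of the list, with 0.65 and 0.38. Rictor, the defining subunit of TORC2, had −0.27 and −0.10 over 8 probes, whose means ran from −0.82 to 0.16 and so differed in sign. Prr5l, a TORC2-bound protein, had −0.13 and −0.48, and Telo2, which helps to assemble TOR kinases, had 0.02 and 0.41.

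Genes that restrain Akt had medians of 0.02 and −0.25. Of the 13, both values were negative for 2 and positive for 1. Inpp5d, which encodes the lipid phosphatase SHIP1, stood far from the rest with −1.94 and −2.89, a mean of −2.41 ± 0.67 (SD, n = 2; limma, unadjusted p = 0.0249, adjusted p = 1). On each array it was the lowest gene of the list. Inpp4b, a phosphatase that acts on the lipid that Inpp5d makes, had 0.44 and 0.47 (unadjusted p = 0.0289, adjusted p = 1 in limma). Its 2 probes had means of 0.13 and 0.78. Them4, an Akt-binding thioesterase, had −0.15 and −0.41.

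Of 21 Akt substrate genes, both values were negative for 3 and positive for 6, with medians of 0.13 and 0.05. The kinase gene Gsk3a had 0.34 and 0.36 and Bad, a proapoptotic relative of BCL2, had 0.26 and 0.44. Cdkn1b, the inhibitor p27, had 0.19 and 0.18, with 3 probes that differed in sign. Among the genes with both values negative, Map3k5, the stress kinase ASK1, had the lowest mean, with −0.66 and −0.63 (unadjusted p = 0.0153, adjusted p = 1 in limma). Casp9 and Pfkfb2, for a caspase and an enzyme that steers glycolysis, lay near 0 with means of −0.06 and −0.0085. Pfkfb2 had 4 probes of mixed sign.

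In the TORC1 branch below Akt, both values were negative for 3 of 14 genes and positive for 2, with medians of −0.10 and −0.02. Eif4b, a translation initiation factor phosphorylated on this branch, had −0.66 and −0.68, and its 3 probes all had means below 0 (unadjusted p = 0.0142, adjusted p = 1 in limma). The autophagy kinase gene Ulk1 had −1.08 and −0.44, and its 2 probes had nearly equal means of −0.77 and −0.75. Eif4ebp2, a translation repressor, and Tsc2, the brake on TORC1 that Akt phosphorylates, were near 0 with means of −0.06 and 0.07.

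Among 13 kinase relatives of Akt, both values were negative for 5 and positive for 0, with medians of −0.02 and −0.10. Sgk1, which shares many substrates with Akt, had −0.25 and −0.61, but 1 of its 2 probes had a mean of −0.90 and the other of 0.04. Prkcz, an atypical protein kinase C, had −0.19 and −0.26 over 3 probes of mixed sign. Prkacb, a catalytic subunit of protein kinase A, had −0.02 and −0.57, with means of −0.58 and −0.0011 for its 2 probes.

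Of 8 regulators of self-renewal that are commonly named together with Tcl1, both values were negative for 6 and positive for 1, with medians of −0.76 and −0.37. Klf4 had −1.55 and −0.72, Nanog −0.95 and −1.04, and Tbx3 −1.07 and −0.53. The 2 Tbx3 probes had unlike means of −1.42 and −0.17. Sox2 had −0.58 and −0.51. Esrrb and Dppa4 were closer to 0, with means of −0.25 and −0.28, and Klf2 had opposite signs (−1.19 and 0.34). Sox2, Esrrb, Dppa4 and Klf2 were picked outside the naming rule with their values in view. The Oct4 gene, Pou5f1, was the 1 gene above 0 on both (0.10 and 0.50). None passed after adjustment (0 called by limma), and 2 of the 8 had an unadjusted p under 0.05. That pluripotency genes lie low in these data was known when the list was made, so its count is no independent evidence.

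**Figure D4:**
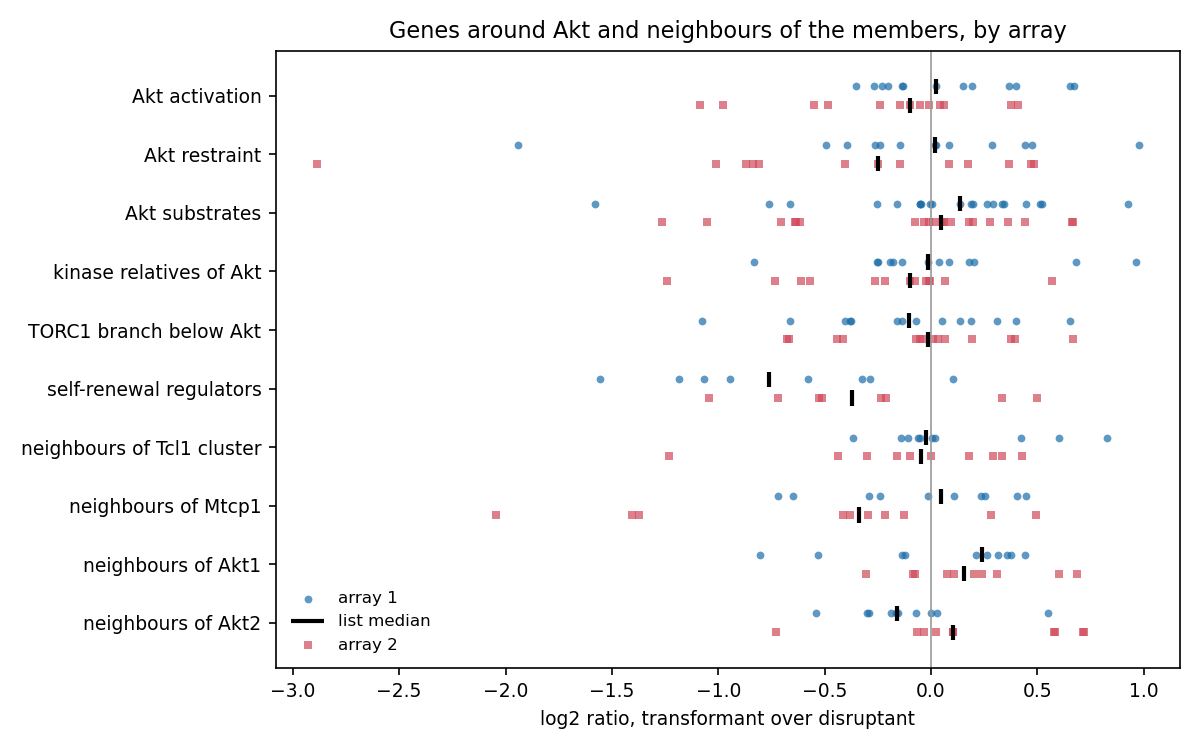
Log2 ratio of transformant over disruptant of each gene (points) in the 6 lists around Akt and self-renewal and among the neighbours of the members, with array 1 as circles, array 2 as squares and list medians as black bars. The self-renewal list has medians of −0.76 and −0.37, and the lowest point on each array is Inpp5d at −1.94 and −2.89.

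The measured genes on either side of each member were read as a description of the surroundings, 5 on each side. Transformants and disruptants alike carried the drug cassette in the Tcl1 locus, and the effect of the cassette on nearby genes was not tested. None of the 40 was called by limma (0). Over all entries, both values were negative for 17% and positive for 21%. Around the Tcl1 and Tcl1b cluster the medians were −0.02 and −0.05, and both values were negative for 2 of 10 genes and positive for 1. Glrx5, for a mitochondrial glutaredoxin, had 0.42 and 0.18, and Tunar, a long noncoding RNA, had −0.37 and −0.10. Dicer1, the nuclease that makes microRNAs, had the widest gap between the arrays there, with 0.83 and −1.23, and is named outside the rule after its values were seen. Bdkrb1, a bradykinin receptor gene, was near 0 (mean −0.07).

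Around Mtcp1 the medians were 0.05 and −0.34, and both values were negative for 3 of 10 genes and positive for 0. Mpp1, a membrane scaffold gene, had −0.29 and −0.38, values next to those of Mtcp1, but its 2 probes had means of −0.69 and 0.02. The transcript 4933407K13Rik had −0.72 and −0.22, and Fundc2 had a mean of −0.07. Around Akt1, both values were positive for 4 of 10 genes (21% of all entries) and negative for 1 (17%), with medians of 0.24 and 0.16. Cep170b, Clba1 and Pld4 led there with means of 0.52, 0.49 and 0.25, and Adssl1, a muscle enzyme of purine synthesis, had −0.80 and −0.31. Around Akt2 the medians were −0.16 and 0.10. Of the 10, 6 shared with Akt2 the sign order of below 0 on array 1 and above 0 on array 2. That order, with Cy3 brighter on both arrays, was seen in 27.3% of all entries. Sertad3 had 0.55 and 0.72, and Zfp626 and Hipk4 had means of −0.44 and −0.17.

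Markers of other cell types were read for the same arrays. Over all entries, both values were negative for 17% and positive for 21%. Of embryonic stem cell markers, both values were negative for 7 of 9 and positive for 2, with Zfp42 lowest (mean −1.62) and Pou5f1 highest (0.30). Pou5f1, Nanog, Sox2, Klf4 and Esrrb are also in the self-renewal list, and that pluripotency genes lie low was known beforehand. This count is thus no independent evidence. Of trophoblast markers 3 of 8 were below and 1 above, from Tfap2c (−0.91) to Hand1 (0.50), and of mesoderm markers 4 of 7 were below and 2 above, from Snai1 (−0.75) to Hand2 (0.26). Primitive endoderm markers had 3 of 8 below and 0 above, with Amn lowest (−0.92) and Gata4 highest (0.18). The 2 Gata4 probes differed in sign, with means of −0.08 and 0.44. Neural markers had 2 of 8 below and 0 above, from Map2 (−0.42) to Pax6 (0.16). The 3 Map2 probes had means from −0.98 to −0.15, and the 3 Pax6 probes from −0.10 to 0.63. Fibroblast markers had 2 of 8 on each side, from Thy1 (−0.99) to Pdgfrb (0.91). The part of these cell types in the values of the Tcl1 family and the Akt genes was not tested.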

How the data were processed

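RNA of 4 clones was measured on 2 two-colour Agilent arrays. The authors used Agilent Feature Extraction, per the submitters' processing notes, whose settings and version are not given in the sources used. The deposited values, 1 per spot for 43790 spots, were taken as log10 ratios of Cy5 over Cy3 (scale and direction inferred from that program's convention; the medians were 0 and 0). They were multiplied by 3.32, and the sign of array 2 was turned. Probes were named through GEO's platform annotation: 32042 had 1 symbol, 47 several and 11701 none. Control-like spots, 725 unlisted ones below −1 in log10 on both arrays, were left out, and probes of a gene averaged. lmFit and eBayes of limma 3.58.1 (R 4.3.3) compared the array mean with 0, two-sided, Benjamini-Hochberg over 30110 entries, threshold 0.05, 1 residual and 0.861 prior degrees of freedom per entry. The limma estimates were tested on simulated data, where the added differences were recovered on average but were not called after adjustment. An exact two-sided sign-flip test of 2 arrays cannot go below p = 0.5. P-values measure the spread between the 2 arrays, which differ in clones, dye orientation and the EGFP vector together. The number of arrays limits precision.

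Members and lists were chosen with earlier results of these data known. Named were all members, from each list and neighbourhood up to 3 lowest and 3 highest genes of equal sign on both arrays, the 3 genes nearest to Tcl1 and to Mtcp1, and the lowest and highest marker of each cell type. Alternatives covered probe averaging, exact zeros, centring, scale, variance model, spots used and single arrays. Promoter windows were aligned with 250 bases each.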

Additional observations from a re-analysis of the deposited data

How the results depend on the processing

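With 2 arrays and 1 residual degree of freedom, a count of 0 calls does not show equal expression. Large differences put into simulated data were not called either, so a count that stays at 0 under the alternatives is no support. The calls among members, pathway genes, neighbours and all entries stayed at 0 under all 8 alternatives that keep both arrays (median over probes, exact zeros left out, centring on named genes or on the mean, a log2 reading, robust eBayes, listed probes alone, control-like spots kept), and among members also with every probe by itself. At an unadjusted limma p under 0.05 all entries gave 488 to 989. Of 76 values of single members under alternatives with both arrays, 74 kept their direction. The 2 that did not were Tcl1b3, at 0.020 with centring on the mean of all entries, and Akt1, at −0.032 by its second probe alone and 0.36 by its first. Centring on the mean shifted array 2 by −0.06, and 4 in place of 5 members then had equal signs on both arrays. With 1 array left out there is a value and no test: Tcl1 ran from −0.37 to 0.17, Tcl1b3 from −0.089 to 0.080, Tcl1b4 from −0.21 to 0.039 and Akt2 from −0.53 to 0.37. Of 80 list medians under alternatives with both arrays, 6 moved by more than the SD between the arrays. Each array already holds its pair and there is 1 group of ratios, so the test of the ratios against 0 is itself the paired comparison.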
